A study of Mus musculus with 12 samples.

Results

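The collagen genes of mouse epididymal white adipose tissue (eWAT) were described across 4 diet groups. The members were the rows of the deposited expression table whose Ensembl identifier maps to a symbol made of Col, a type number, the letter a and a chain number, which gave 44 of 23474 genes. By the type of assembly they form, 11 were fibrillar, 6 type IV, 6 type VI, 2 multiplexins, 9 fibril-associated collagens (FACIT), 3 short-chain network collagens, 4 transmembrane collagens and 3 others. RNA sequencing had been run on eWAT of male C57BL/6J mice, 3 libraries per group and 12 in all. The mice arrived at 4 weeks of age, were randomized at 5 weeks to groups of 10, kept their diet for 12 weeks and were sampled at 17 weeks. The ND group received a normal diet, the HFD group a high-fat diet, the GT group the HFD with an ethanol extract of green tea at 0.25% (w/w), and the TJ group the HFD with Taeeumjowuitang (TJ) at 3% (w/w), a Korean herbal mixture of water extracts from several plants. The GT and TJ groups therefore both carried the HFD. Each HFD and TJ library came from 1 mouse, and the same is not stated for the ND and GT libraries, so that p-values there measure only the spread between these libraries. The values were FPKM, fragments scaled to sequencing depth and to transcript length, so that levels of different collagens can be set side by side.

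Collagens are extracellular proteins of 3 chains wound into a triple helix, in which glycine recurs at 1 of every 3 residues. Fibrillar collagens assemble into cable-like fibrils of the interstitial matrix, type IV collagens into the sheet-like network of basement membranes, and type VI collagens into beaded filaments that lie around and between them. In fat, each adipocyte is wrapped in a basement membrane, stromal cells deposit much of the interstitial matrix, and excess fibrillar collagen is the hallmark of adipose fibrosis.

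The first library of the ND group (ND replicate 1) stood apart from the others and is given separately wherever it enters. Its rank correlation with the other libraries was 0.211 to 0.526 over 13935 genes, against 0.752 to 0.991 between the other libraries. The summed FPKM of 6 germ cell markers was 96472 in it, 2652 in ND replicate 3, 1915 in HFD replicate 1, 146 in ND replicate 2 and 0.602 to 71.9 in the other 8. The summed FPKM of 6 epididymis markers was 12693 in ND replicate 1 and 1290.4 in HFD replicate 2, and at most 12.6 in the rest, and the sum of 6 adipocyte markers was 3819.6 in ND replicate 1 against 16536 to 57572. Estimated depth was 9.59M fragments there and 13.9M to 19.1M elsewhere. In bulk tissue, fewer cells of a type and less RNA per cell cannot be told apart.

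The glycine repeat differs between the 3 main classes in their coding sequence. Stretches are printed here for 2 fibrillar chains, 1 type IV and 1 type VI chain. Glycine codons all begin with GG, and runs with such a codon at 1 of every 3 positions were counted in the longest coding transcript of each of the 44 genes. Fibrillar collagens held 2 or 3 runs of at least 5 repeats, the longest of 216 to 344 repeats. In type IV collagens the helix was split into 16 to 24 runs, the longest of 39 to 66. Type VI collagens held 2 to 4 runs, the longest of 37 to 87, which covered 7.95% to 31.9% of their codons. The following stretches of 72 coding bases, 5′ to 3′ on the coding strand (GRCm38), have glycine codons in capitals. The Col1a1 stretch covers codons 663 to 686 (chr11:94945404-94945562, plus strand, 2 exons), that of Col3a1 codons 668 to 691 (chr1:45336687-45337294, plus strand, 2 exons), that of Col4a1 codons 151 to 174 (chr8:11244516-11245075, minus strand, 2 exons) and that of Col6a1 codons 505 to 528 (chr10:76714438-76715003, minus strand, 3 exons).
Col1a1: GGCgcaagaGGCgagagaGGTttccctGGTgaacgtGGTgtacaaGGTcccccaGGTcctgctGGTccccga
Col3a1: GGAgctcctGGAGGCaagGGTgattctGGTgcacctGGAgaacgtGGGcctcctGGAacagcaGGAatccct
Col4a1: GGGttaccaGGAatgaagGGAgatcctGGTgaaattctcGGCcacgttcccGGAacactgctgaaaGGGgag
Col6a1: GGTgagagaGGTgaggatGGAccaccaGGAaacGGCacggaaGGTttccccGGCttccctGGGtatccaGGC
The Col1a1 and Col3a1 stretches were cut from the middle of the longest run and keep this register throughout. Those of Col4a1 and Col6a1 were cut across the end of the longest run, so that a loss of register was set by this choice. The Col4a1 stretch loses the register 3 times, and the Col6a1 stretch once. The stretches thus do not compare the classes, which the run counts above do.

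**Figure D1:**
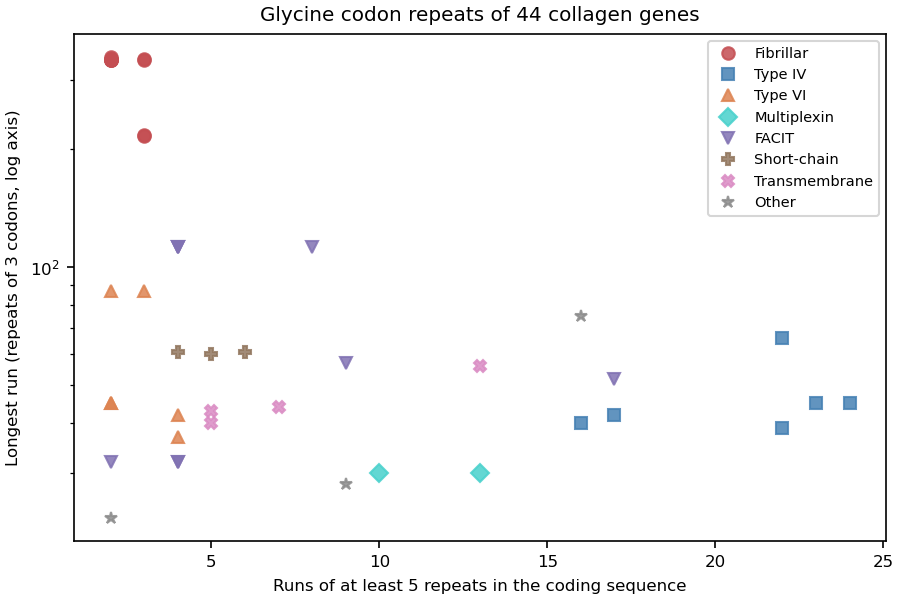
Longest run of regularly spaced glycine codons (repeats of 3 codons, log axis) against the number of runs of at least 5 repeats, for the coding sequence of each of the 44 collagen genes, with a marker shape for each class. Fibrillar collagens sit at the top left (216 to 344 repeats in 2 or 3 runs) and type IV collagens at the lower right (39 to 66 repeats, 16 to 24 runs).

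Of the 44 collagens, 34 reached 1 FPKM in at least 1 library. Without ND replicate 1, 24 averaged 1 FPKM or more across the other 11 libraries, and 9 averaged 100 FPKM or more. In order of mean FPKM over those 11 libraries, these were Col3a1 (452), Col4a2 (229), Col4a1 (213), Col6a1 (205), Col6a2 (205), Col1a2 (199), Col1a1 (119.9), Col15a1 (119) and Col5a3 (117). The ranges of neighbours over the 11 libraries overlapped throughout this order. Over all 12 libraries, Col27a1 lay closest above a mean of 1 FPKM (1.34) and Col2a1 closest below it (0.863), while the tests applied this minimum to the libraries of each comparison.

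The mixture of collagens differed between the groups. In the HFD libraries, fibrillar collagens made up 52.3% to 56.1% of all collagen FPKM, above the GT libraries (37.5% to 47.6%), the TJ libraries (34.9% to 40.6%) and ND replicates 2 and 3 (38.5% to 39.4%), with no overlap. Summed, the fibrillar chains reached 1581 ± 179 FPKM (mean ± SD, n = 3) in the HFD group, 1096 ± 226 in the GT group, 604 ± 222 in the TJ group and 513 ± 92.1 in the ND group without replicate 1 (n = 2). Type IV collagens summed to 466 ± 23.3 FPKM in the HFD group, 603 ± 51.4 in the GT group, 344 ± 151 in the TJ group and 346 ± 92.4 in the ND group without replicate 1. The GT libraries were thus the highest for type IV, and the range of the TJ libraries (215 to 511) held those of the HFD group and of ND replicates 2 and 3. Type VI collagens summed to 588 ± 54.3 FPKM in the HFD group, 568 ± 34.8 in the GT group, 416 ± 145 in the TJ group and 251 ± 0.800 in the ND group without replicate 1, and their share was 19.2% to 21.0% in the HFD, 21.9% to 23.4% in the GT and 25.6% to 26.2% in the TJ libraries and 21.5% and 17.1% in ND replicates 2 and 3. ND replicate 1 had another mixture, with 5.08% fibrillar and 83.9% FACIT collagen.

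**Figure D2:**
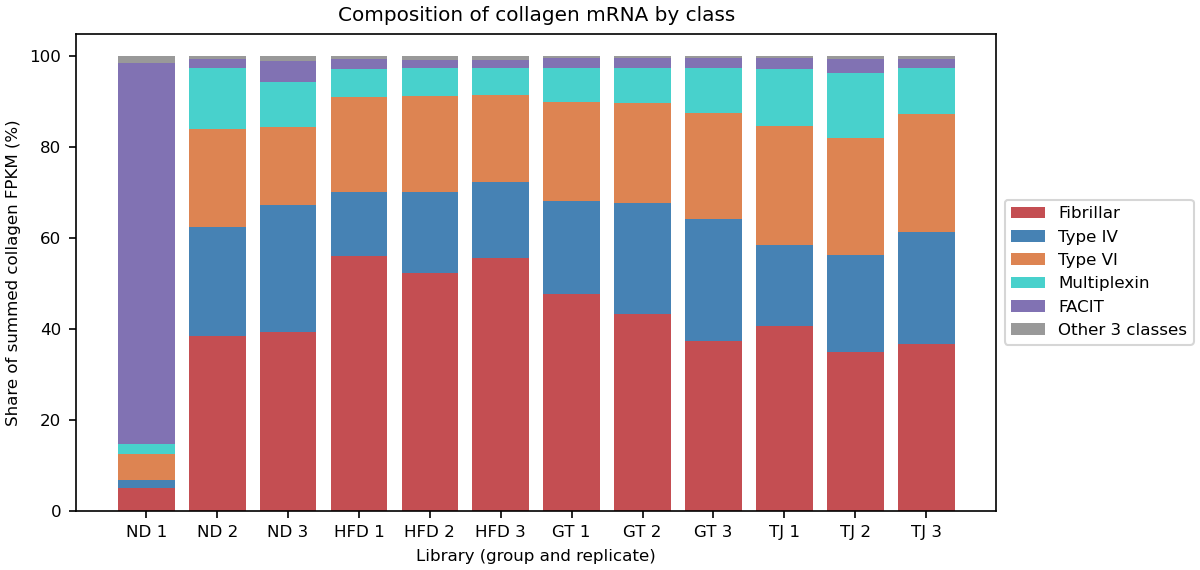
Share of summed collagen FPKM (%) taken by each class, 1 bar per library from 0 to 100%. The fibrillar part is 52.3% to 56.1% in the 3 HFD bars and 34.9% to 40.6% in the 3 TJ bars, and the ND 1 bar is 83.9% FACIT.

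Some partner chains kept a narrow ratio in these libraries and others did not. Over the 11 libraries other than ND replicate 1, the ratio of Col6a2 to Col6a1 was 0.879 to 1.07 and that of Col4a2 to Col4a1 0.875 to 1.21. The ratio of Col1a2 to Col1a1 ranged from 1.43 to 2.92, that of Col6a3 to Col6a1 from 0.171 to 0.308 and that of Col5a3 to Col5a1 from 2.09 to 4.12. The ratio of Col5a2 to Col5a1 was 1.71 to 2.11 in the HFD, 1.32 to 1.53 in the GT and 1.02 to 1.19 in the TJ libraries and 1.27 to 1.54 in ND replicates 2 and 3. Between assemblies, the ratio of Col3a1 to Col1a1 was 3.12 to 4.79, whereas that of Col3a1 to Col4a1 was 2.93 to 4.37 in the HFD, 1.26 to 2.39 in the GT and 1.16 to 2.01 in the TJ libraries and 1.01 to 1.20 in ND replicates 2 and 3. The HFD libraries were above all others of the 11 in the ratios of Col5a2 to Col5a1 and of Col3a1 to Col4a1. These are descriptions of the libraries, with no test.

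**Figure D3:**
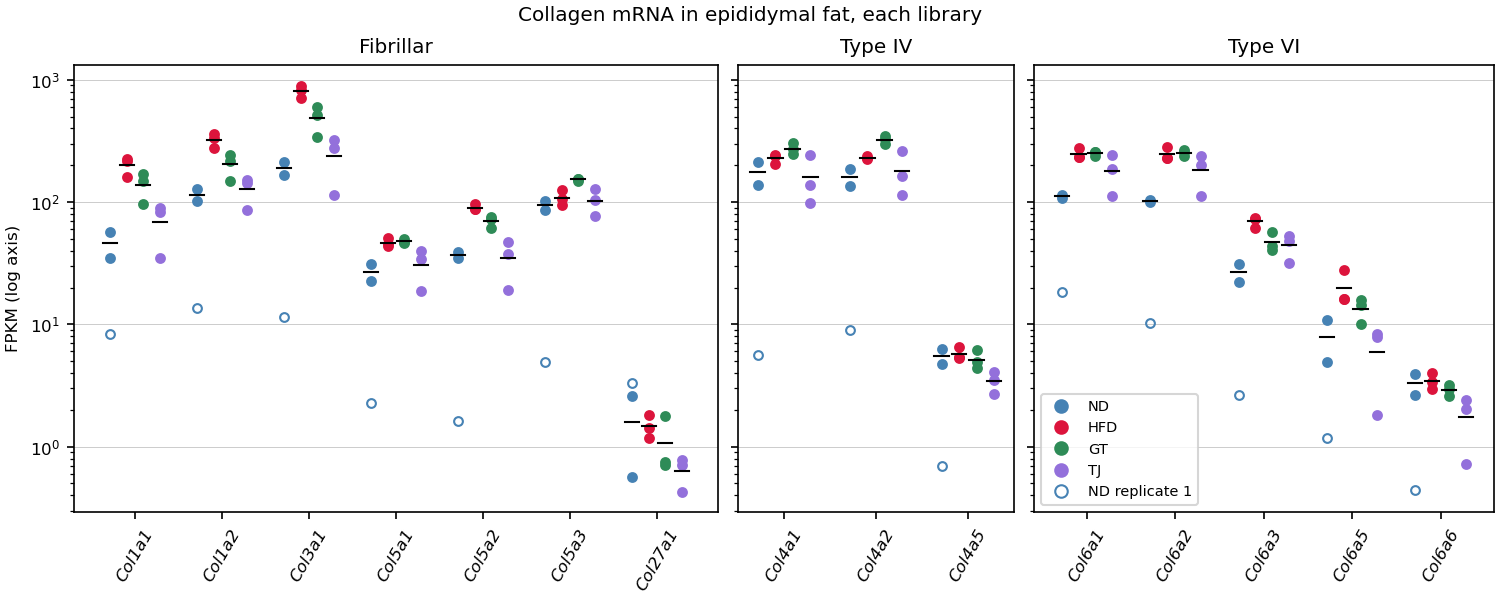
FPKM (log axis) of the fibrillar, type IV and type VI collagens that averaged 1 FPKM or more across the 12 libraries, other than Col6a4, 1 point per library, with group means as bars (the ND bar leaves out replicate 1, drawn open). For Col3a1 the HFD points lie at 715 to 895 FPKM, above the GT (342 to 595), TJ (114 to 323) and ND points, while for Col4a1 the HFD points (205 to 244 FPKM) share their range with 1 ND and 1 TJ point.

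The first comparison asked what the HFD did to collagen mRNA relative to the normal diet. With all 3 ND libraries none of the 31 collagens tested was a differentially expressed gene (DEG, an adjusted p-value under 0.05 in limma and a fold change of at least 1.5), against 1.73% of all genes tested in the higher and 0.0416% in the lower direction, and 10 of the 31 had an unadjusted p under 0.05, against 11.6% of all genes. When all 12 libraries entered the fit, Col1a1, Col3a1, Col8a1 and Col12a1 were upregulated, as were 7.12% of all genes. Without ND replicate 1, 11 of 27 collagens were upregulated in the HFD group and none was downregulated, against 11.0% and 4.34% of all genes. These 11 were 5 fibrillar chains, 3 type VI chains, Col12a1, Col14a1 and Col8a1, and they included no type IV chain and no multiplexin. A fit over the 11 libraries other than ND replicate 1, added after the data were seen, called 10 of these (all but Col5a1) and none lower, against 13.0% and 6.44% of all genes. Of the 31, 4 (Col2a1, Col6a4, Col9a3 and Col26a1) passed the minimum of 1 FPKM through ND replicate 1, so that counts over those tested are not counts over all members. Without ND replicate 1, all 6 macrophage markers were upregulated (sums of 544 and 420.0 FPKM in ND replicates 2 and 3, 2789 to 3900 in the HFD libraries). Of 6 adipocyte markers, 4 were downregulated and 1 upregulated. Of 6 fibroblast markers, 3 were upregulated, but their sums overlapped (359 and 327 FPKM in ND replicates 2 and 3, 343 to 366 in the HFD libraries). Of 5 mesothelial markers, 3 were downregulated (sums of 26.7 and 40.9 FPKM in ND replicates 2 and 3, 9.17 to 11.9 in the HFD libraries). The part of all these markers in the collagen values was not tested.

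Type I and type III collagen form the bulk of interstitial fibrils. Col3a1, the single chain of type III collagen (chr1:45311538-45349706), was at 895, 715 and 818 FPKM in HFD replicates 1 to 3 and at 11.4, 167 and 214 FPKM in ND replicates 1 to 3. Every HFD library lay above every ND library, and the mean was 4.25-fold that of ND replicates 2 and 3 (log2 fold change 2.09, SE 0.17, adjusted p = 0.00221 without ND replicate 1, and 3.40, 1.11 and 0.293 with it). For Col1a1 (chr11:94936224-94953042), which encodes the main chain of type I collagen, the libraries held 227, 159.8 and 218 FPKM in the HFD group and 8.30, 34.8 and 57.3 FPKM in the ND group. Its groups did not overlap either, and its mean was 4.37-fold that of ND replicates 2 and 3 (log2 fold change 2.13, SE 0.27, adjusted p = 0.00786 without ND replicate 1, and 2.90, 0.70 and 0.145 with it). Its partner chain Col1a2 (chr6:4504814-4541544) was at 356, 278 and 332 FPKM under the HFD and 13.6, 102 and 128 FPKM under the normal diet, with a log2 fold change 1.48, SE 0.17, adjusted p = 0.00595 without ND replicate 1, and 2.48, 0.86 and 0.333 with it. All 3 genes thus shared 1 direction, with the lowest value of each in ND replicate 1.

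Type V collagen is a minor component that sets the diameter of type I fibrils, and without ND replicate 1 Col5a1 and Col5a2 were called while Col5a3 was not, a difference between chains that was not tested. Col5a2 (chr1:45374321-45503282) was at 86.9, 87.6 and 95.5 FPKM in the HFD and 1.61, 35.1 and 39.4 FPKM in the ND libraries, without overlap (log2 fold change 1.25, SE 0.12, adjusted p = 0.00321 without ND replicate 1, and 2.54, 1.08 and 0.452 with it). Col5a1 was at 51.0, 43.4 and 45.3 FPKM against 2.29, 22.8 and 31.1 FPKM, with a log2 fold change 0.78, SE 0.17, adjusted p = 0.0388 without ND replicate 1, and 1.8, 0.87 and 0.494 with it. The third chain, Col5a3, had 125, 106 and 94.7 FPKM in the HFD and 4.95, 86.1 and 103 FPKM in the ND libraries. Its groups overlapped and it did not pass the test (log2 fold change 0.20, SE 0.16, adjusted p = 0.484 without ND replicate 1, and 1.53, 1.12 and 0.52 with it). Col27a1, a minor fibrillar chain known from cartilage, was at 1.81, 1.42 and 1.19 FPKM against 3.30, 0.564 and 2.62 FPKM, and its log2 fold change was -0.24 with and 0.05 without ND replicate 1. Over the fibrillar chains tested the median log2 fold change was 2.14 (8 chains) with and 1.25 (7 chains) without ND replicate 1, where the median of all genes was 0.07 and -0.02.

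No type IV chain was a DEG in this comparison, with or without ND replicate 1. Col4a1 (chr8:11198423-11312826), a chain of the basement membrane network found in nearly all tissues, was at 205, 244 and 240.0 FPKM in the HFD and 5.57, 139 and 213 FPKM in the ND libraries. Col4a2 (chr8:11312805-11449287), its partner in that network, was at 228, 224 and 237 FPKM against 8.98, 136 and 186 FPKM. Neither was a DEG (log2 fold change 0.41, SE 0.21, adjusted p = 0.268 without ND replicate 1, and 1.98, 1.32 and 0.505 with it for Col4a1, and log2 fold change 0.53, SE 0.16, adjusted p = 0.0905 without ND replicate 1, and 1.86, 1.12 and 0.495 with it for Col4a2), although the HFD values of Col4a2 lay above all ND values. Col4a5, a chain of more restricted type IV networks, was at 5.40, 6.56 and 5.35 FPKM against 0.694, 4.71 and 6.25 FPKM, and ND replicate 3 lay within the HFD range (log2 fold change 0.07, SE 0.19, adjusted p = 0.832 without ND replicate 1, and 0.71, 0.60 and 0.557 with it). Col4a4 was the 1 collagen of the 31 tested whose HFD values all lay below the ND values, at 0.410, 0.561 and 0.232 against 2.26, 0.718 and 3.30 FPKM, and was not a DEG (log2 fold change -1.05, and -0.96 without ND replicate 1). The median over the 4 type IV chains tested was 1.29 with and 0.24 without ND replicate 1.

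Type VI collagen, a prominent collagen of the matrix around adipocytes, was upregulated without ND replicate 1 in its 3 classical chains. Col6a1 (chr10:76708792-76726168) was at 276, 234 and 234 FPKM in the HFD and 18.2, 108 and 114 FPKM in the ND libraries (log2 fold change 1.15, SE 0.13, adjusted p = 0.00525 without ND replicate 1, and 2.0, 0.74 and 0.377 with it). Col6a2 (chr10:76595762-76623630) was at 280.1, 229.7 and 229.7 FPKM against 10.3, 104 and 100.02 FPKM (log2 fold change 1.26, SE 0.13, adjusted p = 0.00489 without ND replicate 1, and 2.32, 0.90 and 0.404 with it). Col6a3 (chr1:90765923-90843971), whose released C-terminal fragment is known as endotrophin, was at 74.6, 61.8 and 72.04 FPKM against 2.65, 31.0 and 22.2 FPKM (log2 fold change 1.37, SE 0.18, adjusted p = 0.00945 without ND replicate 1, and 2.33, 0.83 and 0.352 with it). For each of the 3, every HFD library lay above every ND library. Col6a5 and Col6a6 encode chains that can take the place of the Col6a3 chain. The HFD libraries held 16.2, 27.6 and 16.2 FPKM of Col6a5 against 1.18, 4.92 and 10.9 FPKM, with no overlap (log2 fold change 1.28, SE 0.39, adjusted p = 0.0875 without ND replicate 1, and 1.93, 0.66 and 0.326 with it). Col6a6 overlapped, at 2.94, 4.01 and 3.37 against 0.442, 2.65 and 3.92 FPKM (log2 fold change 0.06, SE 0.24, adjusted p = 0.884 without ND replicate 1, and 0.58, 0.52 and 0.575 with it). The type VI median was 1.96 with (6 chains) and 1.26 without (5 chains) ND replicate 1.

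Of the other classes, 3 genes passed without ND replicate 1. Col12a1, a FACIT collagen that coats fibrils, was at 6.21, 6.52 and 8.23 FPKM in the HFD and 1.92, 1.83 and 1.73 FPKM in the ND libraries (log2 fold change 1.51, SE 0.20, adjusted p = 0.00879 without ND replicate 1, and 1.49, 0.29 and 0.0776 with it), and here ND replicate 1 lay beside the other ND libraries. Col14a1, another fibril-coating FACIT, was at 30.5, 22.9 and 26.7 FPKM against 3.64, 13.6 and 16.5 FPKM (log2 fold change 0.78, SE 0.17, adjusted p = 0.038 without ND replicate 1, and 1.38, 0.55 and 0.419 with it). Col8a1, a short-chain collagen of vessel walls, was at 12.1, 9.31 and 15.2 FPKM against 0.418, 3.78 and 3.59 FPKM (log2 fold change 1.47, SE 0.23, adjusted p = 0.014 without ND replicate 1, and 2.05, 0.56 and 0.194 with it). The multiplexins of the basement membrane zone did not pass. Col15a1 was at 131, 94.5 and 106 FPKM against 13.8, 90.6 and 78.3 FPKM (log2 fold change 0.37, SE 0.17, adjusted p = 0.222 without ND replicate 1, and 1.22, 0.74 and 0.496 with it), and Col18a1, the source of endostatin, was at 59.6, 68.7 and 64.0 FPKM against 9.28, 64.4 and 65.3 FPKM (log2 fold change -0.02, SE 0.11, adjusted p = 0.922 without ND replicate 1, and 0.87, 0.77 and 0.568 with it). Counted without any test, 15 of the 31 collagens had all HFD values above all ND values and 1 had them below, where 20.5% and 5.89% of all genes did. Without ND replicate 1 the counts were 15 and 1 of 27, against 28.0% and 19.2%.

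**Figure D4:**
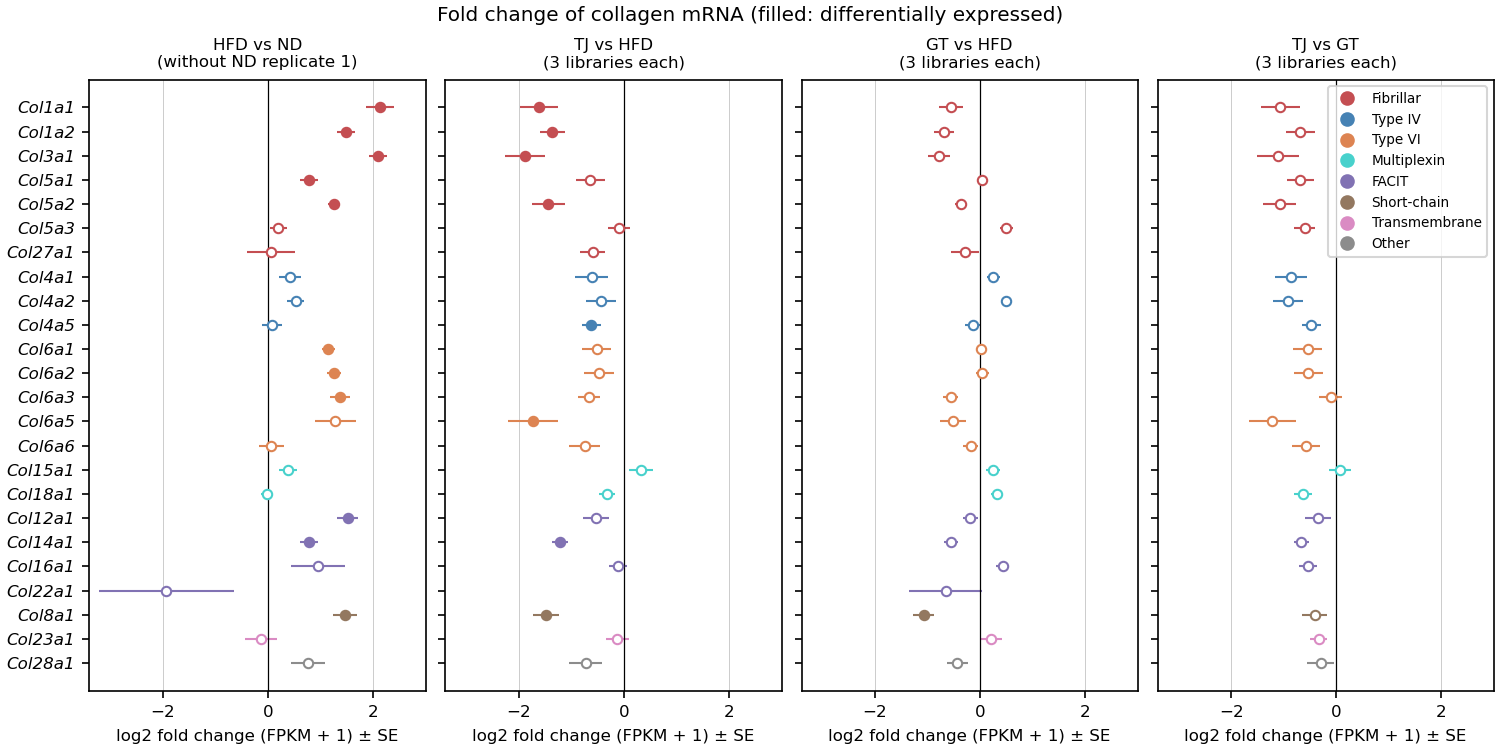
Log2 fold change on the log2(FPKM + 1) scale with its SE for the collagens that averaged 1 FPKM or more across the 11 libraries other than ND replicate 1, in 4 comparisons, coloured by class. Filled points are DEGs, which are 11 in HFD vs ND without ND replicate 1, 8 in TJ vs HFD, 1 in GT vs HFD and 0 in TJ vs GT. A gene without a point was below the expression minimum of that comparison.

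The second comparison asked what TJ did on top of the HFD. Here 8 of 23 collagens were downregulated in the TJ group and none was upregulated, where 11.1% of the 12807 genes tested were downregulated and 7.41% upregulated. The 8 were Col3a1, Col1a1, Col1a2 and Col5a2 of the fibrillar class, Col6a5 of type VI, Col4a5 of type IV, and Col8a1 and Col14a1. In 12 of 23 all TJ values lay below all HFD values, against 31.4% of all genes, and in none above, against 20.1%. The call depended on single libraries. When any 1 of the 3 HFD libraries or TJ replicate 1 was left out, limma called none of the 22 to 24 collagens then tested, nor any other gene. In these fits 9 to 11 collagens had an unadjusted p under 0.05, and 29.0% to 38.2% of all genes. By contrast, 7 of 24 were called without TJ replicate 2 (9.53% of all genes) and 10 of 24 without TJ replicate 3 (16.8%). No collagen was called with all 12 libraries in the fit (5 at an unadjusted p under 0.05, and 17.0% of all genes), where limma called 1 of all 12807 genes, and with no expression minimum Col14a1 alone was (0.904% of all genes). A fit over the 11 libraries other than ND replicate 1 called 9 lower, Col6a3 in addition, and none higher (14.0% and 9.49% of all genes). Between the same groups, 5 of 6 macrophage markers were downregulated (sums of 697 to 2067 FPKM in the TJ against 2789 to 3900 in the HFD libraries), 5 of 6 adipocyte markers were upregulated (28329.5 to 57572 against 16536 to 18874 FPKM) and 2 of 6 fibroblast markers were downregulated (261 to 340 against 343 to 366 FPKM), as was 1 of 4 mesothelial markers tested (sums of 3.57 to 16.9 against 9.17 to 11.9 FPKM), and their part in the collagen values was not tested.

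Col3a1 had the largest decrease on the log2(FPKM + 1) scale, while Col6a5 fell more with a pseudocount of 0.1 (-1.95 against -1.89) and without HFD replicate 1 (-1.85 against -1.81). Col3a1 was at 278, 114 and 323 FPKM in TJ replicates 1 to 3, and the HFD mean was 3.40 times the TJ mean, with no overlap (log2 fold change -1.89, SE 0.38, adjusted p = 0.0276). Col1a1 was at 89.2, 35.0 and 83.1 FPKM (log2 fold change -1.62, SE 0.36, adjusted p = 0.0313) and Col1a2 at 152, 86.2 and 144 FPKM (log2 fold change -1.37, SE 0.24, adjusted p = 0.0248). TJ replicate 2 was the lowest of the 3 for each of these chains, and it also held the lowest macrophage sum and the highest adipocyte sum of the group. Col5a2 was at 37.5, 19.1 and 47.5 FPKM (log2 fold change -1.44, SE 0.31, adjusted p = 0.0295). Its neighbour on chromosome 1, Col3a1, lies 24614 bp away. Col5a1, at 34.0, 18.7 and 39.8 FPKM, did not overlap the HFD group and missed the threshold (log2 fold change -0.64, SE 0.27, adjusted p = 0.119), and Col5a3, at 103, 77.1 and 128 FPKM, overlapped the HFD group, with TJ replicate 2 below and replicate 3 above its range (log2 fold change -0.10, SE 0.21, adjusted p = 0.731). The sign for Col5a3 was positive after median-of-ratios scaling (0.04) and with the length trend removed (0.29). Col27a1, at 0.775, 0.427 and 0.702 FPKM, lay below all HFD libraries and missed the threshold (log2 fold change -0.60, SE 0.24, adjusted p = 0.11). The median of the 7 fibrillar chains tested was -1.37, against -0.14 over all genes.

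The main type IV chains did not pass in this comparison. Col4a1 was at 139, 98.5 and 244 FPKM and Col4a2 at 164, 114 and 262 FPKM, where TJ replicate 3 lay above the whole HFD range for Col4a2 and inside it for Col4a1, and replicates 1 and 2 lay below it for both. Their log2 fold changes were -0.61 (SE 0.31, adjusted p = 0.179) and -0.43 (SE 0.29, adjusted p = 0.279). Col4a5 was at 3.50, 2.70 and 4.08 FPKM and was downregulated (log2 fold change -0.62, SE 0.17, adjusted p = 0.0464), at a level far below that of Col4a1. This call was lost after median-of-ratios scaling, after quantile normalization and with the trend of fold change with transcript length or with GC content removed. The median of the 3 type IV chains was -0.61.

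Col4a1 and Col4a2 are transcribed in opposite directions from a shared region, and their windows from 250 bases before to 50 after the RefSeq start sites (GRCm38.p6) overlap by 78 bases. Both are shown because the levels of these chains kept a ratio of 0.875 to 1.21 in the 11 libraries other than ND replicate 1 (1.61 there), together with that of Col3a1 as the collagen of highest mean level. Col6a1 and Col6a2 lie on the same strand, 85161 bp apart, and their ratio was 0.879 to 1.07 in the same 11 libraries. Whether the shared region has a part in the ratio was not tested. Each is printed 5′ to 3′ on the strand of its gene. Capitals mark matches to the TATA box (searched as TATAAA), the CCAAT box (searched as its name spells it) and the GC box (searched as GGGCGG) on either strand, and no 2 matches overlap within a window.
Col4a1 (chr8:11312777-11313076, minus strand): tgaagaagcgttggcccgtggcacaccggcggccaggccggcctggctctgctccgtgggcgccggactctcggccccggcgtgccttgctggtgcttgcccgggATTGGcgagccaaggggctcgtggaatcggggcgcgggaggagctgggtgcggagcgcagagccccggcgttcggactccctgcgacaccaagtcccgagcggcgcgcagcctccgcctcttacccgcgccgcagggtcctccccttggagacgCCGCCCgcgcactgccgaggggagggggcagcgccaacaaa
Col4a2 (chr8:11312555-11312854, plus strand): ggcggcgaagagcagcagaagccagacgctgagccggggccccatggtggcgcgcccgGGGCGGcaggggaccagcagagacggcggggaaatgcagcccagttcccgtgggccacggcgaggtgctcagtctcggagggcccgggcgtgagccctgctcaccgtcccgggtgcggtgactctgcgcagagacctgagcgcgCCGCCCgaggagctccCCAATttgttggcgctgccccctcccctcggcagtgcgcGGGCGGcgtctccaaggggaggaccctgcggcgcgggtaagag
Col3a1 (chr1:45311288-45311587, plus strand): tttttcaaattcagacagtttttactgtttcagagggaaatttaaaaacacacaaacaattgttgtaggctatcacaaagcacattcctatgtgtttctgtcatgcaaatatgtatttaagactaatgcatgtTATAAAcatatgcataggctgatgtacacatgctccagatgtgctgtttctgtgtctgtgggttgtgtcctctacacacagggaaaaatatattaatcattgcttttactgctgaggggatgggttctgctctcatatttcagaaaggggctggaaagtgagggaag
The Col4a1 window held 1 CCAAT and 1 GGGCGG match, that of Col4a2 held 1 and 3, and neither held TATAAA, while the Col3a1 window held 1 TATAAA match and neither of the others. The GGGCGG match of Col4a1 and 1 of the 3 of Col4a2 are the same bases, in the overlap of the windows, read on opposite strands. The GC content was 74.0% for Col4a1, 73.7% for Col4a2 and 37.7% for Col3a1. Of 32851 windows of this length, 13.6% held TATAAA, 37.4% CCAAT and 35.7% GGGCGG on either strand. Of the 38 windows of the 35 collagens in the RefSeq table, 13.2%, 34.2% and 60.5% did. The 2 type IV windows thus differed from that of Col3a1 in all 3 motifs.

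In type VI, only Col6a5 was downregulated, from the HFD values above to 8.28, 1.82 and 7.82 FPKM in the TJ libraries (log2 fold change -1.73, SE 0.47, adjusted p = 0.045). The chains that form the common type VI filament did not pass. Col6a1 was at 187, 111 and 244 FPKM (log2 fold change -0.52, SE 0.28, adjusted p = 0.196) and Col6a2 at 199.6, 111 and 240.0 FPKM (log2 fold change -0.49, SE 0.29, adjusted p = 0.229), with TJ replicate 3 inside the HFD range of both. Col6a3 was at 53.1, 31.8 and 48.2 FPKM, below all HFD libraries, and missed the threshold (log2 fold change -0.66, SE 0.21, adjusted p = 0.0612). For Col6a6 the libraries held 2.05, 0.725 and 2.42 FPKM (log2 fold change -0.75, SE 0.29, adjusted p = 0.0966). The median of the 5 type VI chains was -0.66.

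Outside these classes, Col8a1 and Col14a1 were downregulated. Col8a1 was at 3.22, 2.80 and 5.19 FPKM (log2 fold change -1.49, SE 0.24, adjusted p = 0.0238), each TJ library being below each HFD library. Col14a1 was at 10.6, 9.85 and 12.2 FPKM and had the smallest adjusted p of the collagens (log2 fold change -1.22, SE 0.15, adjusted p = 0.0196). Col15a1 was the 1 collagen of 23 with a log2 fold change above 0, where 40.8% of all genes were above 0. After median-of-ratios scaling Col5a3 and Col16a1 were above 0 as well, after quantile normalization Col16a1 and Col23a1, and with the length trend removed these 3 and Col18a1. Col15a1 was at 165, 100.1 and 154 FPKM, and TJ replicate 2 lay within the HFD range (log2 fold change 0.32, SE 0.23, adjusted p = 0.313). Fold changes in this comparison fell with transcript length (Spearman correlation -0.331 across 12725 genes, which are not independent), and the collagens tested had a median transcript of 6119 nt against 3288 nt for all genes. With that trend removed 7 collagens were downregulated and Col15a1 was upregulated (0.66), where 7.54% and 11.6% of all genes were, with medians of -1.01, -0.19 and -0.27 for fibrillar, type IV and type VI chains. Differences between the classes were not tested.

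The third comparison, of the green tea extract on the HFD, used the same HFD libraries. Of 24 collagens tested, 1 was downregulated and none upregulated, where 1.81% and 1.83% of all genes were, and 11 had an unadjusted p under 0.05, against 29.3% of all genes. The 1 DEG was Col8a1, at 5.77, 5.98 and 3.92 FPKM in GT replicates 1 to 3, below all HFD values (log2 fold change -1.08, SE 0.21, adjusted p = 0.0442). It was not called without any 1 of the HFD libraries, without GT replicate 2 or 3 or with all 12 libraries in the fit, and without GT replicate 1 the DEGs were Col8a1, Col3a1 and Col6a3, all lower (5.70% of all genes). The fit over the 11 libraries other than ND replicate 1 called no collagen (0.564% of all genes higher and 0.525% lower), with 6 at an unadjusted p under 0.05, against 17.5% of all genes. In 7 collagens all GT values lay below all HFD values and in 5 above, against 24.4% and 12.3% of all genes. Beside this, 3 of 6 fibroblast markers were downregulated, 2 of 6 adipocyte markers were upregulated, and no macrophage marker was called (sums of 1164 to 2566 FPKM), and their part in the collagen values was not tested.

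The fibrillar chains split in this comparison, with values on both sides of the HFD group. Col3a1 was at 595, 511 and 342 FPKM (log2 fold change -0.78, SE 0.21, adjusted p = 0.0761) and Col1a2 at 242, 218 and 149.7 FPKM (log2 fold change -0.68, SE 0.20, adjusted p = 0.0836), all below the HFD libraries. Col1a1 was at 169, 149 and 97.1 FPKM and overlapped (log2 fold change -0.56, SE 0.23, adjusted p = 0.167), and Col5a2, at 72.8, 76.1 and 61.0 FPKM, did not (log2 fold change -0.36, SE 0.11, adjusted p = 0.0962). GT replicate 3 was the lowest GT library for all 4, and its macrophage sum was also the lowest of the group (1164 FPKM against 2297 and 2566). Col5a3, by contrast, was at 155, 155 and 149 FPKM, above all HFD libraries (log2 fold change 0.50, SE 0.12, adjusted p = 0.0618), and Col5a1 was at 47.5, 49.9 and 46.1 FPKM (log2 fold change 0.04, SE 0.10, adjusted p = 0.793). The fibrillar median was -0.36, against -0.12 over all genes.

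Both main type IV chains lay higher in the GT libraries without reaching the fold required, and Col4a5 did not. Col4a2 was at 297, 345 and 327 FPKM, above every HFD library, and had an adjusted p below the threshold at less than 1.5-fold (log2 fold change 0.49, SE 0.10, adjusted p = 0.0458). Col4a1 was at 249, 301 and 271 FPKM, also above the HFD values (log2 fold change 0.25, SE 0.12, adjusted p = 0.203), and Col4a5 was at 4.40, 6.13 and 4.92 FPKM (log2 fold change -0.14, SE 0.14, adjusted p = 0.517). After median-of-ratios scaling, which moved the median of all genes from -0.12 to -0.01, Col4a2 (0.62) and Col5a3 (0.63) were upregulated beside the decrease of Col8a1 (3.13% of all genes higher and 1.14% lower), and removal of the length trend gave the same 3 calls (3.69% and 1.11%). The type IV median was 0.25 and the type VI median -0.18 (0.02 after quantile normalization). In type VI, Col6a1 (258, 256 and 238 FPKM) and Col6a2 (256, 268 and 236 FPKM) had log2 fold changes of 0.02 and 0.05, whose sign turned when single libraries were left out. Col6a3, at 56.5, 44.1 and 40.7 FPKM, lay below the HFD group (log2 fold change -0.56, SE 0.15, adjusted p = 0.0696), Col6a5 was at 15.9, 14.3 and 10.1 FPKM (log2 fold change -0.52, SE 0.25, adjusted p = 0.21) and Col6a6 at 2.62, 3.18 and 2.95 FPKM (log2 fold change -0.18, SE 0.15, adjusted p = 0.443). Col14a1, at 16.8, 19.4 and 17.1 FPKM, lay below the HFD group as well (log2 fold change -0.55, SE 0.13, adjusted p = 0.0558).

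In the comparison of TJ with GT, no collagen of 22 was a DEG by limma, where 0.139% of all genes were upregulated in the TJ group and 0.00821% downregulated, and 13 collagens had an unadjusted p under 0.05, against 24.6% of all genes. In 14 all TJ values lay below all GT values and in none above, against 14.9% and 19.5% of all genes, and 1 of 22, Col15a1, had a log2 fold change above 0 (0.08), against 46.8%. From the values given above, Col3a1 (log2 fold change -1.11, SE 0.40, adjusted p = 0.165), Col5a2 (log2 fold change -1.08, SE 0.31, adjusted p = 0.127) and Col1a1 (log2 fold change -1.07, SE 0.37, adjusted p = 0.158) were lower in every TJ than in every GT library. On the log2(FPKM + 1) scale Col6a5 had the lowest fold change (log2 fold change -1.21, SE 0.44, adjusted p = 0.167). Col4a1 (log2 fold change -0.86, SE 0.31, adjusted p = 0.162) and Col4a2 (log2 fold change -0.92, SE 0.29, adjusted p = 0.138) did not overlap either, with TJ replicate 3 the nearest to the GT libraries. Medians were -0.87 for fibrillar, -0.86 for type IV and -0.54 for type VI chains, and -0.03 over all genes. The fit over the 11 libraries called Col14a1 and Col18a1 lower and none higher (0.345% and 1.68% of all genes). The trend with transcript length was steepest here (Spearman correlation -0.489), and without it the median of all 22 collagens moved from -0.59 to -0.36.

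Some collagens had their highest level in ND replicate 1, the library with germ cell and epididymis transcripts. Col22a1, a FACIT collagen known from muscle-tendon junctions, was at 667, 1.25 and 23.2 FPKM in ND replicates 1 to 3, 5.25, 0.125 and 0.0281 FPKM in the HFD, 0.504, 0.0667 and 0.147 FPKM in the GT and 0.105, 0.0261 and 0.0292 FPKM in the TJ libraries. The next highest libraries, ND replicate 3 and HFD replicate 1, were also the next highest in germ cell markers. Col20a1, another FACIT, was at 85.1, 0.385 and 2.36 FPKM in the ND and 1.68, 0.420 and 0.327 FPKM in the HFD libraries, and the GT and TJ libraries lay between 0.376 and 0.818 FPKM. Col16a1, a FACIT of many connective tissues, was at 90.0, 5.28 and 20.1 FPKM in the ND libraries and between 16.1 and 32.2 FPKM in the 9 others. Outside ND replicate 1 its highest levels were those of the GT libraries. Col9a3 was at 16.6 FPKM in that library and overlaps Tcfl5 on the opposite strand (67.7 FPKM there), and Col6a4 was at 25.1 FPKM there and below 1 FPKM in every other library. The library kit's strand setting was not stated, so that reads of Col9a3 and Tcfl5 cannot be told apart. None of these 5 genes was a DEG in HFD against ND with all libraries, and without ND replicate 1 neither Col22a1, Col20a1 nor Col16a1 was (Col22a1 had log2 fold changes of -4.10 with and -1.93 without it).

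**Figure D5:**
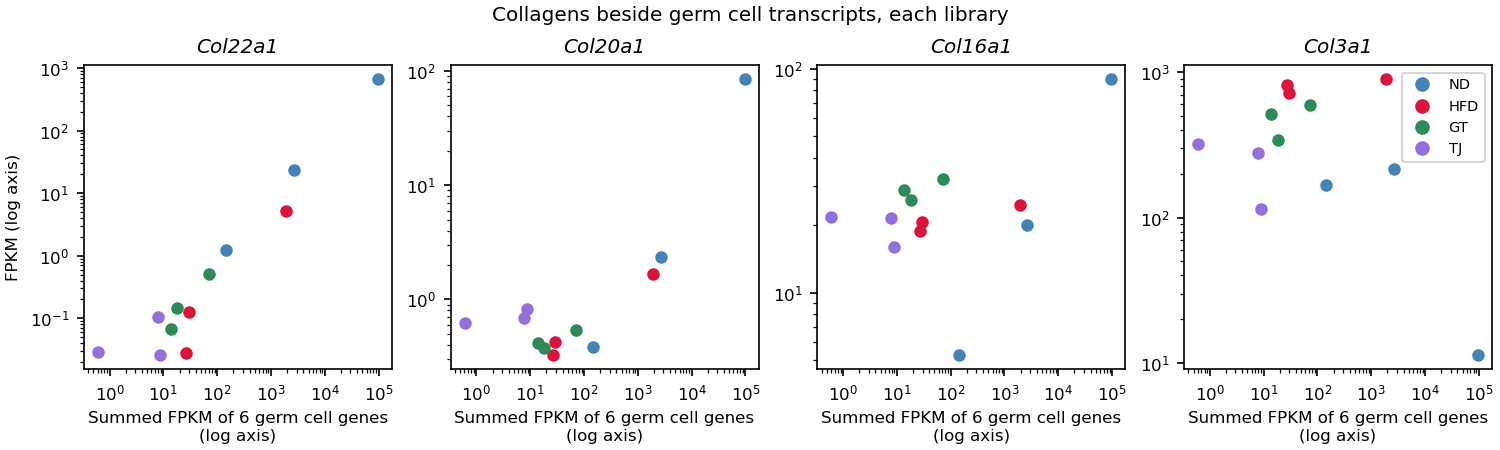
FPKM of 4 collagens (log axis) against the summed FPKM of 6 germ cell markers (log axis), 1 point per library, coloured by group. Col22a1 rises from below 1 FPKM to 667 FPKM with the germ cell sum, which reaches 96472 FPKM in ND replicate 1, whereas Col3a1 is lowest in that library (11.4 FPKM).

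Collagen needs dedicated enzymes, export machinery, receptors and partner proteins, and 5 lists of such genes held 53, of which 46 were tested. In TJ against HFD, 10 were downregulated and 3 upregulated, where 11.1% and 7.41% of all genes were, with a median log2 fold change of -0.35. Among modifying and folding enzymes (16 tested), P4ha1, a prolyl hydroxylase subunit, and Plod2, a lysyl hydroxylase, were downregulated (log2 fold change -0.96, SE 0.15, adjusted p = 0.0232 for Plod2). Serpinh1, the collagen chaperone, had a mean of 264 FPKM in the TJ and 259 FPKM in the HFD group. Of 8 export and propeptide genes, Pcolce, which enhances procollagen cleavage, and Adamts14, a propeptidase, were downregulated (log2 fold change -0.88, SE 0.19, adjusted p = 0.0301 for Pcolce), and of 7 receptors Lair1, a collagen receptor of leukocytes, and Itga11, an integrin subunit for fibrillar collagen (log2 fold change -2.31, SE 0.41, adjusted p = 0.0248 for Lair1). Among 5 fibril-bound proteoglycans 3 were downregulated, Lum, Bgn and Fmod (log2 fold change -1.84, SE 0.43, adjusted p = 0.0343 for Lum). The 10 basement membrane partners went both ways, with the laminin chain Lama5 (log2 fold change 1.25, SE 0.22, adjusted p = 0.0247), Hspg2 and Agrn upregulated and the laminin chain Lama2 downregulated (log2 fold change -1.17, SE 0.17, adjusted p = 0.0199).

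For GT against HFD, where 1.81% of all genes were downregulated and 1.83% upregulated, 3 of the 46 were downregulated and none upregulated, Plod2 (log2 fold change -0.75, SE 0.12, adjusted p = 0.0379), Lama2 (log2 fold change -0.74, SE 0.11, adjusted p = 0.0361) and P3h3, a prolyl hydroxylase family member. For HFD against ND, where 1.73% of all genes were upregulated and 0.0416% downregulated, 1 was upregulated, Lair1 (log2 fold change 3.62, SE 0.48, adjusted p = 0.0295), and none downregulated. Without ND replicate 1, 12 were upregulated and 2 downregulated, where 11.0% and 4.34% of all genes were. The 12 included Serpinh1 (log2 fold change 1.03), Colgalt1, which adds galactose to collagen (log2 fold change 1.57), Lum (log2 fold change 2.19), Bgn (log2 fold change 1.30), Pcolce2 (log2 fold change 1.72) and Mrc2, a receptor for collagen uptake (log2 fold change 1.99). Both downregulated genes were laminin chains, Lama4 (log2 fold change -0.79) and Lamb2 (log2 fold change -0.83). For TJ against GT none of the 46 was a DEG, where 0.139% of all genes were upregulated and 0.00821% downregulated, with a median of -0.24.

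The remaining collagens were low in this tissue. In none of the 12 libraries did the fibrillar Col11a1, Col11a2 and Col24a1, the type IV Col4a3, the FACIT Col9a2 and Col19a1, the short-chain Col10a1 and the transmembrane Col13a1, Col17a1 and Col25a1 reach 1 FPKM. Col6a4, Col9a1 and Col7a1, the anchoring fibril collagen, reached it in ND replicate 1 only. Col23a1, a transmembrane collagen, was at 1.25 to 2.36 FPKM over the 12 libraries, and Col28a1, related to type VI in its domains, at 0.802 to 4.26 FPKM, and neither was a DEG in any of the 4 comparisons.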

How the data were processed

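Libraries had been prepared from eWAT RNA with the Illumina TruSeq RNA kit and sequenced paired-end. Per the study's methods, the authors filtered low-quality reads, mapped the rest with STAR to a genome of Ensembl release 72 (the methods name the human genome, while the identifiers are mouse identifiers) and computed the deposited FPKM values with Cufflinks 2.1.1, with noncoding regions masked and with corrections for multireads and fragment bias. The submitters' processing notes name STAR 2.4.0, Cufflinks 2.1.1 and CASAVA 1.8.2. The study's read counts were not used here, so that depth could only be estimated, by the smallest steps in the FPKM values of 2315 genes. No columns were left unmapped.

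GENCODE M21 gave gene symbols (for 22671 of 23474 identifiers), GRCm38 coordinates, transcript lengths and coding sequences, and RefSeq (GRCm38.p6) the promoter windows. Each comparison was a limma fit (version 3.58.1, R 4.3.3; lmFit, then eBayes with trend) to log2(FPKM + 1), a scale that understates changes of low genes, with the 6 libraries of the 2 groups and no covariate. Genes averaging 1 FPKM or more across them were tested, and p-values were adjusted over all of these by the Benjamini-Hochberg method. Both a 1.5-fold change and an adjusted p-value under 0.05 made a DEG. An exact permutation test of 3 libraries against 3 cannot give a two-sided p below 0.1 and was not used. The script was tested on simulated data. Alternatives changed the pseudocount (0.1), the minimum (none, 5 FPKM), the scaling, the fit and the libraries. The fits with 11 libraries (all but ND replicate 1) were added after seeing the data.

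In HFD against ND, the deviations of libraries with the same replicate number had correlations of 0.547, 0.342 and 0.122. Those between different numbers reached 0.626, and 2 of 3 libraries correlated best with their own number. These values do not settle whether the replicate number marks a pairing, and a fit with it as a block was also made. Members and gene lists were chosen with earlier results of these data known. Named with values were fibrillar, type IV and type VI chains that averaged 1 FPKM or more across the 12 libraries, every DEG among the collagens, the collagens with the highest and lowest fold change, and of each pathway list the DEGs that changed most. Of these, Col27a1 was given only in HFD against ND and in TJ against HFD. Others given by value were chosen after their values were seen. Python 3.11.15 with numpy 2.4.6, pandas 2.3.3 and matplotlib 3.10.9 handled tables and plots.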

Additional observations from a re-analysis of the deposited data

How the results depend on the processing

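With 3 libraries per group, single libraries decided most calls. Leaving out 1 library at a time gave 0 to 11 upregulated collagens in HFD against ND, 0 to 10 downregulated in TJ against HFD and 0 to 3 downregulated in GT against HFD, and no call in TJ against GT. The medians ranged from 0.24 to 2.64 for type IV and from 1.26 to 2.47 for type VI in HFD against ND. With all 12 libraries in the fit, 4 collagens were upregulated in HFD against ND (7.12% of all genes), and none was downregulated in TJ against HFD or GT against HFD (5 and 1 at an unadjusted p under 0.05, and 17.0% and 4.25% of all genes). With the 11 libraries other than ND replicate 1, there were 10 upregulated in HFD against ND (13.0% of all genes; type VI median 1.26), 0 downregulated in GT against HFD (0.525%) and 2 (Col14a1 and Col18a1) in TJ against GT (0.345%). With no expression minimum, 1 was downregulated in TJ against HFD (Col14a1, with 0.904% of all genes; fibrillar median -0.60) and 0 in GT against HFD (0.0154%), and the type IV median was 0.046 in GT against HFD and -0.33 in TJ against GT. In GT against HFD, upregulated collagens numbered 2 after median-of-ratios scaling (3.13% of all genes; type IV median 0.38), 2 with the length trend removed (3.69%; type IV median 0.40), 1 with the GC trend removed (3.33%) and 1 with no minimum fold change, and downregulated ones 2 after quantile normalization (1.27%) and 0 with the GC trend removed (1.11%) or no mean-variance trend (0.266%). With the length trend removed, TJ against HFD had 1 upregulated collagen (11.6% of all genes) and a type VI median of -0.27.

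Blocking on the replicate number left 0 collagen DEGs in HFD against ND, where limma called 0 of all 14430 genes (11 collagens and 15.5% of all genes at an unadjusted p under 0.05), 6 downregulated in TJ against HFD (6.00% of all genes), 0 in GT against HFD (0.0313%) and 0 in TJ against GT (0.00821%). In the last 3 comparisons, the correlations between same-numbered libraries ranged from -0.051 to 0.227, -0.070 to 0.198 and -0.213 to 0.371. Those between different numbers reached 0.199, 0.174 and 0.305, and 1 of 3 libraries correlated best with its own number in each. So few values cannot exclude a pairing.

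Among the collagens described by value in each comparison, the sign of 14 log2 fold changes turned. Leaving out 1 library at a time gave -0.68 to 0.049 for Col27a1, -0.98 to 0.95 for Col16a1 and -0.019 to 1.33 for Col18a1 in HFD against ND, -0.27 to 0.090 for Col5a3 and -0.20 to 0.026 for Col16a1 in TJ against HFD, -0.0061 to 0.11 for Col5a1, -0.020 to 0.099 for Col6a1 and -0.0023 to 0.14 for Col6a2 in GT against HFD, and -0.062 to 0.30 for Col15a1 and -0.25 to 0.11 for Col6a3 in TJ against GT. Under the other alternatives, the values that turned were 0.049 for Col27a1, 0.95 for Col16a1 and -0.019 for Col18a1 with the 11 libraries, 0.11 after quantile normalization and 0.17 with the GC trend removed for Col16a1, 0.040 after median-of-ratios scaling and 0.29 with the length trend removed for Col5a3, 0.025 after median-of-ratios scaling, 0.0082 after quantile normalization and 0.23 with the length trend removed for Col16a1 in TJ against HFD, 0.20 after quantile normalization and 0.24 with the length trend removed for Col23a1 and 0.046 with the length trend removed for Col18a1 in TJ against HFD, 0.060 after quantile normalization and 0.0049 with the length trend removed for Col4a5 in GT against HFD, 0.058 after quantile normalization for Col6a6 in GT against HFD, -0.098 after quantile normalization and -0.014 with the GC trend removed for Col15a1, and 0.27 with the length trend removed for Col6a3. The causes were not tested. Depth can limit collagens near 1 FPKM, which was not tested.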
